A study of Homo sapiens with 2 samples.

Results

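The promoter peaks described here are those whose NRF-1 fold enrichment ranked higher in AATF-depleted cells than in control cells. Binding of NRF-1 was mapped by ChIPmentation, a chromatin immunoprecipitation in which the sequencing adapters are added by Tn5 transposase, in the established glioblastoma line U251. One list came from cells that received a control siRNA (siControl) and the other from cells in which AATF was targeted by siRNA (siAATF). The same NRF-1 antibody was used for both, and 1 list of MACS2 broad peaks per condition was analysed, so no spread between replicates and no test between conditions could be computed. The series design text gives the line as U138, but both samples are labelled U251, the name used here. A pair was eligible when a siControl and a siAATF peak overlapped each other and no other peak, lay on chromosomes 1 to 22 or X, reached a siControl −log10 q of at least 5, and when the siControl peak lay within 1 kb of a protein-coding transcript start. Each peak was ranked by fold enrichment in its own whole list, on a scale of 0 (weakest) to 100 (strongest). Of 9345 eligible pairs, 1031 gained more than 10 points (11.0% of the eligible pairs) and form the rising set. For comparison, 1167 pairs lost more than 10 points (12.5%, the falling set) and 7147 stayed between these limits (the steady set). Among all 15644 one-to-one pairs on these chromosomes, 17.3% gained more than 10 points and 14.3% lost more than 10.

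The transcription factor NRF-1 recognises a GC-rich palindrome in the promoters of nuclear genes, among them genes for respiratory chain subunits and for the mitochondrial transcription machinery. Its promoters are mostly CpG islands that are active in many cell types. AATF, also known as Che-1, is a cofactor that interacts with RNA polymerase II and was studied here as a partner of NRF-1. The comparison addressed whether NRF-1 occupancy at promoters depends on AATF. Since the rank change itself chose the rising peaks, it is given as a description and supports nothing.

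The sequences that bear on these peaks fall into 2 kinds. A first group of 18 rising peaks held the exact NRF-1 palindrome GCGCATGCGC. Of the 8 with the highest siControl −log10 q, 7 are shown and the other, TDRP, is described only by its values. They are given on the strand of the nearest coding start, as 30 bases of hg19 with the palindrome in capitals, because they are the rising promoters where the factor's own word is present.
STXBP5: gggctgcggcGCGCATGCGCaggtaccgca
FMR1: tcccagcagcGCGCATGCGCgcgctcccag
NELFB: gaccgggtggGCGCATGCGCgctgggctgg
PDCD4: ggagccacatGCGCATGCGCcctcccgcgc
CCDC86: cgcgcgaattGCGCATGCGCatgctgagcc
INTS3: ggctgacatcGCGCATGCGCctcagcgcac
JAG1: attaataagcGCGCATGCGCcctgcccggc
Measured from the nearest coding start, the palindrome lay at −54 bp in JAG1 (chr20:10654686-10654715, minus strand), at −129 bp in FMR1 (chrX:146993293-146993322, plus strand), at −136 bp in NELFB (chr9:140149628-140149657, plus strand) and at −723 bp in STXBP5 (chr6:147524815-147524844, plus strand). The FMR1 and CCDC86 windows overlapped an annotated exon and the other windows did not.

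The 3 rising peaks with the highest siControl −log10 q held the palindrome with 1 substitution, its position counted from 1 at the 5′ end. The 10 bases of the site, of which 9 match, are in capitals. The PGRMC2 and MSL2 peaks each held 2 such sites, of which 1 is shown.
PGRMC2: tcaggagcccGCGCACGCGCtgtggtctcg
MSL2: agtgtgctctGCGCATGCGTgcgagcgcta
JAK2: gcaccgagcgGCGCACGCGCactgcaggac
PGRMC2 (chr4:129209276-129209305, minus strand) and JAK2 (chr9:4985010-4985039, plus strand) carried T6C, and MSL2 (chr3:135915158-135915187, minus strand) carried C10T. All 3 windows overlapped an annotated exon.

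The second kind of sequence comes from the rising promoters without the palindrome, which were the majority. All 9 promoters with the largest change were of this kind, with no match in the siControl peak even at 1 mismatch. Such a match was in only 8.44% of all rising peaks. The 120 bases directly upstream of the coding start were read for 8 of them, and those of IPO7 and THSD1 held none of the words of other promoter factors that were searched. The THSD1 window had 0 bp of overlap with its siControl peak, so it does not describe the sequence of that peak. The windows of ZNF841, KIF20B and RPS6 are shown as examples that hold such words, in capitals, and that of IPO7 as an example without them. The words in capitals are the SP word GGGCGG, the ETS word CCGGAAG, the NFY word CCAAT and the ZBTB33 palindrome TCTCGCGAGA, read on both strands.
ZNF841: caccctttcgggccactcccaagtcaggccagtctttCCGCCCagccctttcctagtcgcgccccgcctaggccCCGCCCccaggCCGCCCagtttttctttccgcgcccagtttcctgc
IPO7: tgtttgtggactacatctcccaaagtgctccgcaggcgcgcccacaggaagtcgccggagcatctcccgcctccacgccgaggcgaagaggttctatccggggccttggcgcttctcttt
KIF20B: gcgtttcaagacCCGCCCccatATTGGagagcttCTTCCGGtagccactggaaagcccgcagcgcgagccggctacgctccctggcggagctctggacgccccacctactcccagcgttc
RPS6: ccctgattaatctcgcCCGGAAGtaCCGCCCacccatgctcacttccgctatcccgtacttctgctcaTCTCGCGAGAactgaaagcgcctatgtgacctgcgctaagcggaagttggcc
The ZNF841 window (chr19:52599019-52599138, minus strand) held 3 SP words. The KIF20B window (chr10:91461227-91461346, plus strand) held 1 each of the SP, NFY and ETS words. The RPS6 window (chr9:19380235-19380354, minus strand) held 1 SP word, 1 ETS word and the ZBTB33 palindrome. The IPO7 window is chr11:9406079-9406198 on the plus strand. None of the 4 windows overlapped an annotated exon.

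**Figure D1:**
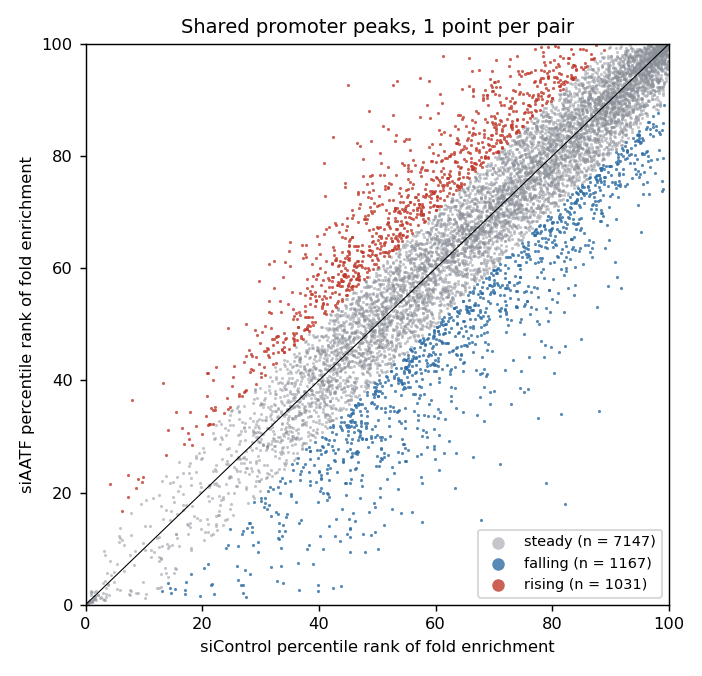
Percentile rank of fold enrichment in siControl (x axis) against siAATF (y axis), 1 point per eligible promoter pair, with the line of equal rank. The 1031 rising pairs lie above the steady band, mostly at siControl ranks between 40 and 80, and none starts above rank 90.

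Rising peaks came from the middle of the siControl list. The median siControl rank was 55.0, with a range of 4.22 to 88.9. Of the rising peaks, 789 (76.5%) started between 40 and 80, against 53.3% of steady, 65.5% of falling and 57.4% of all eligible pairs. A peak above rank 90 has no room to gain 10 points, and 1470 eligible pairs (15.7%) were in that position. The siAATF rank of the rising peaks had a median of 72.1 and reached 99.8. The gain had a median of 14.5 points. It exceeded 20 points in 195 pairs and 30 points in 23, with a largest value of 47.8. At the threshold, TSNAX (10.04 points), HNRNPH3/PBLD (10.007) and NSMCE4A (10.004) were just inside, whereas SLC35E2B (9.96), MTERF2 (9.96) and CA2 (9.93) were just outside.

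The 9 promoters with the largest gains belong to genes of varied function. ZNF841, which encodes a zinc finger protein, was first: its peak had a fold enrichment of 5.50 and rank 45.0 in siControl, and a fold enrichment of 8.62 and rank 92.7 in siAATF. IPO7, a nuclear import receptor, had ranks of 42.3 and 83.5. LUC7L3, a splicing-related protein, had ranks of 52.6 and 92.7. All 3 peaks were thus near the middle of the siControl list and above rank 80 in the siAATF list. THSD1 ranked 53.4 and 93.4. KIF20B, a mitotic kinesin, ranked 48.6 and 88.1. RPS6, a protein of the small ribosomal subunit, ranked 40.9 and 78.8. PGBD5, a gene derived from a transposase, reached the highest siAATF rank of the 9, from 61.2 to 97.8. The last of them were CCDC186 (57.4 and 94.0) and RASA4B (46.6 and 82.4). RASA4B has a near-identical copy in the genome, so reads could have been placed at either copy and its values are uncertain.

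**Figure D2:**
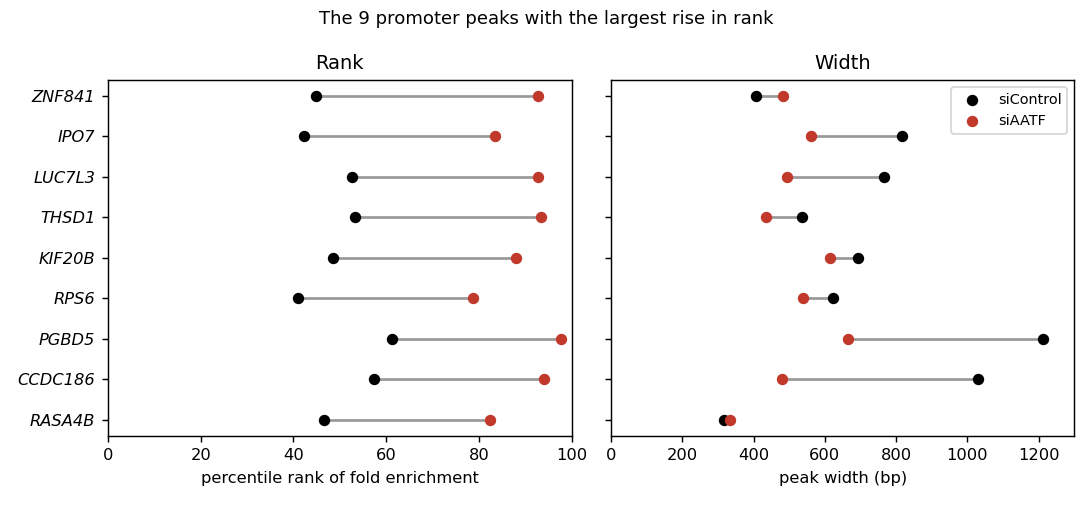
Percentile rank of fold enrichment (left) and peak width in bp (right) of the 9 rising promoters with the largest gain, with siControl in black and siAATF in red, 1 peak each. All 9 gained 35.8 points or more, and 7 of the 9 siAATF peaks are narrower than their siControl counterpart. The siAATF peak is narrower in 79.3% of all rising pairs.

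The −log10 q of the same peaks changed less in rank. This value comes from the same 2 lists as the rule and is described without a test. The rising set had a median −log10 q of 11.8 (siControl) and 15.7 (siAATF). The value was higher in siAATF for 986 of 1031 peaks (95.6%), against 30.2% of all eligible pairs. Its percentile rank was higher in siAATF for 1024 peaks (99.3%), against 53.2% of all eligible pairs. However, only 329 rising peaks (31.9%, exact 95% interval 29.1 to 34.9) gained more than 10 points of −log10 q rank, against 3.78% of all eligible pairs, and the median gain was 7.81 points. ZNF841 also changed most by this measure in the rising set, with −log10 q of 5.57 and 19.6. In contrast, PGRMC2, a haem-binding membrane protein with the highest siControl −log10 q of the rising set, had −log10 q of 82.6 and 85.9 while its enrichment rank was 70.01 in siControl and 85.2 in siAATF.

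The width of the called peaks differed along with the rank. MACS2 gives the enrichment of a broad peak as its mean over the called region, so width and enrichment are not independent, and their part in each other was not tested. The siControl peaks of the rising set had a median width of 847 bp and the siAATF peaks one of 749 bp. The siAATF peak was the narrower in 818 of 1031 rising pairs (79.3%, 76.7 to 81.8), compared with 41.2% of all eligible pairs, 38.8% of steady pairs and 22.02% of falling pairs. It was narrower by over 100 bp in 479 rising pairs (46.5%), against 6.90% of steady pairs. The share was higher at higher siControl rank, from 72.3% of the rising pairs that started at ranks 20 to 40 to 95.2% of those that started at 80 or above. Over all eligible pairs it was 51.4% and 32.0% in the same bands. Below rank 20 it was 42.9% of rising pairs (9 of 21) and 47.1% of eligible pairs. Among the loci named above, PGBD5 had widths of 1211 bp (siControl) and 664 bp (siAATF), and CCDC186 of 1030 bp and 479 bp. IPO7 measured 817 bp and 561 bp. ZNF841 and RASA4B were exceptions, with 406 and 483 bp for ZNF841 and 318 and 334 bp for RASA4B.

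The narrowing was mostly on the side of the gene body. Oriented by the nearest coding start, the downstream edge lay inward in siAATF by a median of 59 bp in the rising set and the upstream edge by 7 bp. In steady pairs both edges lay slightly outward, by medians of −4 bp downstream and −12 bp upstream. The downstream edge was inward in 780 rising pairs (75.7%) and the upstream edge in 569 (55.2%), against 45.5% and 37.1% of steady pairs. A downstream shift of over 100 bp was seen in 354 rising pairs (34.3%) and an upstream one in 123 (11.9%). The same shares were 5.72% and 2.91% in steady pairs and 8.77% and 4.07% over all eligible pairs. Large shifts were thus more frequent downstream in these sets as well. Where all coding starts within 1 kb were on 1 strand, the medians over 908 rising pairs were 60 bp and 6.5 bp. Examples with a long downstream shift were FOSL1, an AP-1 subunit (627 bp), EIF4E, the cap-binding translation factor (587 bp), PGBD5 (549 bp) and JUN, another AP-1 subunit (473 bp). TFEB, a regulator of lysosomal genes, had the opposite pattern, with 550 bp upstream and 62 bp downstream. In the falling set both edges lay outward, by medians of −39 bp downstream and −38 bp upstream.

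**Figure D3:**
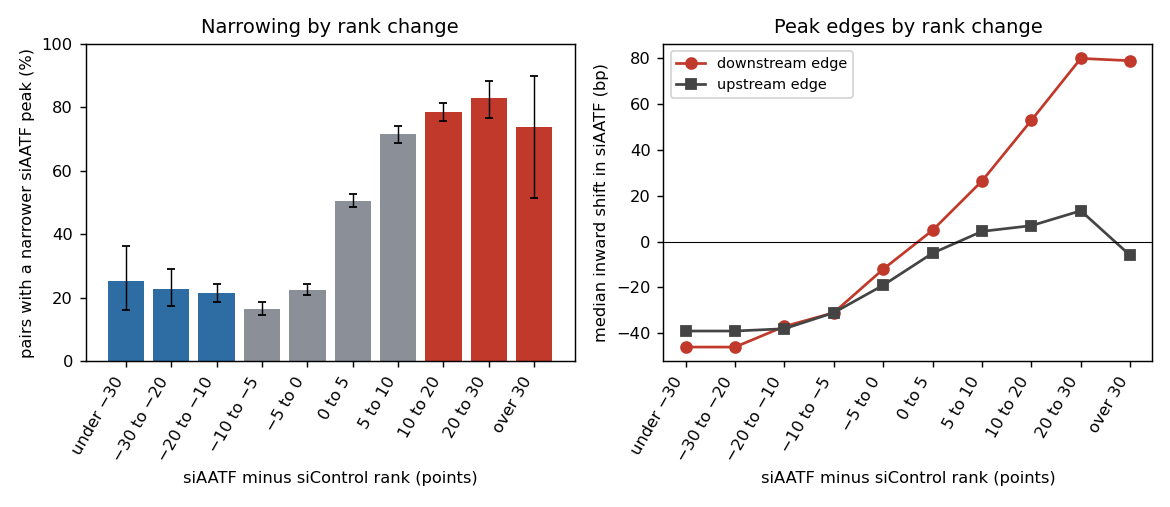
Left, share of eligible pairs with a narrower siAATF peak by class of rank change, with exact 95% intervals, in blue for falling, grey for steady and red for rising classes. Right, median inward shift of the downstream and upstream peak edge in bp for the same classes. The share is 22.6% for changes of −5 to 0 points and 83.1% for gains of 20 to 30 points, and the downstream shift reaches 80 bp while the upstream shift stays at 13.5 bp or less.

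With enrichment multiplied by width, most rising peaks no longer changed rank by much. This product was computed after the widths had been seen. On the log2 scale, the siAATF to siControl ratio in the rising set had a median of 0.16 for enrichment, −0.16 for width and −0.0027 for the product. Over all eligible pairs these medians were −0.075, 0.026 and −0.048. The product rank was higher in siAATF for 676 rising peaks (65.6%), against 54.0% of all eligible pairs. Ranked by the product, 126 of the 1031 rising peaks (12.2%, 10.3 to 14.4) gained more than 10 points, against 5.47% of all eligible pairs. Of those 126, the siAATF peak was wider in 106 (84.1%), against 58.2% of all eligible pairs, but width is itself part of the product. ZNF841 was among them, with a gain of 21.3 points, as were RPL32 (21.8 points), MCM5 (15.997 points) and ATP5MC1 (13.2 points). On the other hand, PGBD5 and EIF4E were lower by the product, with changes of −16.1 and −17.8 points. Among 3781 eligible pairs whose widths were within 5% of each other, 200 (5.29%) belonged to the rising set and 180 (4.76%) to the falling set.

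The NRF-1 palindrome was less common in rising than in steady peaks. With up to 1 mismatch it was present in 87 of 1031 rising siControl peaks (8.44%, 6.81 to 10.3), in 31.6% (30.5 to 32.7) of steady peaks and in 11.5% (9.71 to 13.5) of falling peaks. The exact form was in 1.75%, 5.08% and 1.80%, respectively. A control palindrome of the same bases, GCCGATCGGC, was present with up to 1 mismatch in 4.56% of rising, 5.22% of steady and 4.799% of falling peaks. In 300 bp windows at the peak midpoint, the palindrome with up to 1 mismatch was in 5.53% of rising peaks. It was in 26.2% of steady and 10.1% of falling windows, and in 9.64% of 300 bp windows centred on 19471 canonical coding starts. The gap between rising and steady peaks was also present among peaks of like siControl rank. At siControl ranks 40 to 60 the palindrome was in 4.61% (2.84 to 7.03) of rising and 17.1% (15.4 to 19.03) of steady peaks. At ranks 60 to 80 it was in 14.6% (11.1 to 18.8) and 34.6% (32.6 to 36.7). Falling peaks were close to rising ones in the same bands, with 3.86% (2.17 to 6.28) and 13.3% (10.1 to 17.2).

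Peaks of like −log10 q gave another picture. Rising peaks made up 21.1% of eligible pairs with a siControl −log10 q of 5 to 10 and 15.3% of those from 10 to 20. They were 9.24% of those from 20 to 40 and 2.20% of those at 40 or more. Falling peaks showed a like decline, with 20.5%, 17.5%, 10.1% and 4.74% of the same classes. Within the first of these classes the palindrome was in 2.13% (0.980 to 4.01) of rising and 1.79% (1.11 to 2.73) of steady peaks. From 10 to 20 the shares were 3.62% (1.94 to 6.11) and 5.31% (4.26 to 6.53). From 20 to 40 they were 11.96% (7.65 to 17.5) and 15.1% (13.4 to 16.9). At 40 or more they were 65.2% (52.4 to 76.5) and 68.4% (66.7 to 70.1). The intervals of rising and steady peaks overlapped in all 4 classes, although the rising share was the lower in each class from 10 upward. Overlap of intervals is not a test, and a difference in palindrome share between peaks of like significance was not tested. Only 5 rising peaks (0.485%) were among the 1000 eligible pairs with the highest siControl −log10 q. These 1000 were 10.7% of all eligible pairs, and held 13.1% of steady and 4.88% of falling pairs.

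**Figure D4:**
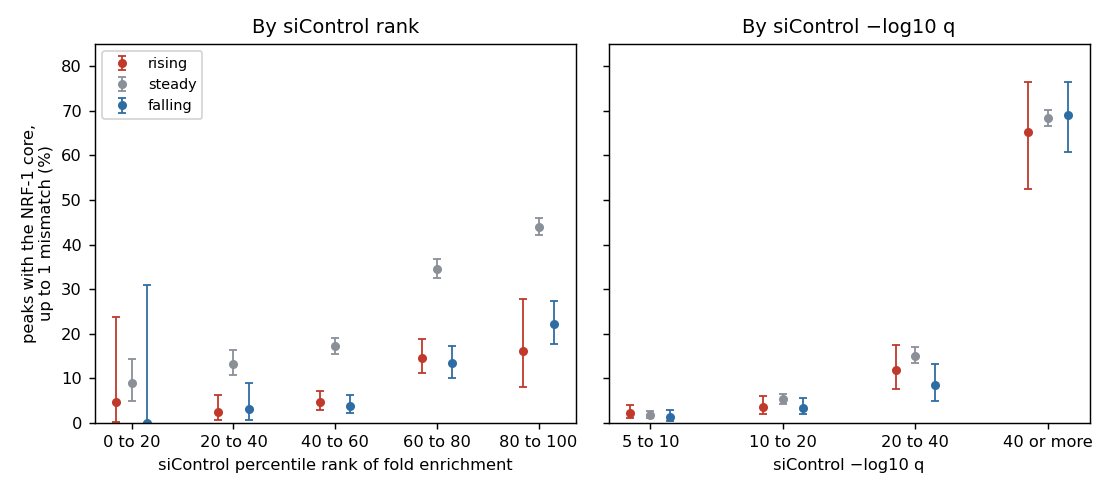
Share of siControl peaks with the NRF-1 palindrome at up to 1 mismatch, by siControl rank of fold enrichment (left) and by siControl −log10 q (right), for rising, steady and falling pairs, with exact 95% intervals that cover counting error only. Rising and falling peaks lie below steady ones at ranks of 20 and above. Within classes of −log10 q the intervals of rising and steady peaks overlap.

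Of the 87 rising peaks with the palindrome at up to 1 mismatch, 43 had a siControl −log10 q of 40 or more. Among the exact matches, FMR1, which encodes an RNA-binding protein of neurons, had ranks of 86.7 and 97.3 and −log10 q of 70.2 and 74.5. STXBP5, a regulator of exocytosis, had ranks of 69.9 and 80.5, with −log10 q of 75.1 and 70.3. Its −log10 q was thus the lower in siAATF although its enrichment rank was the higher. NELFB, a subunit of the complex that pauses RNA polymerase II, had ranks of 71.5 and 81.7, and INTS3, an Integrator subunit, had ranks of 59.6 and 73.7. PDCD4, an inhibitor of translation, had ranks of 71.4 and 83.7, and TDRP had ranks of 77.5 and 91.1. JAG1, a ligand of Notch receptors, had the largest gain of the 8 exact matches with the highest −log10 q, with ranks of 64.4 and 81.1, with peak widths of 1175 bp and 900 bp. With 1 mismatch, JAK2, a cytokine receptor kinase, had ranks of 72.5 and 87.5, and MSL2, a subunit of a histone acetyltransferase complex, had ranks of 63.1 and 75.3. KDM7A, a histone demethylase, had no match and a siControl −log10 q of 73.4.

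Other promoter words were about as common in rising as in steady peaks. In 300 bp windows at the siControl midpoint, the SP word was in 79.8% (77.2 to 82.2) of rising and 80.8% of steady peaks, and in 12072 of the 19471 coding start windows. The ETS word was in 15.03% and 15.4%, beside 13.5% of coding start windows. The NFY word was in 26.2% (23.5 to 29.0) and 24.7%, beside 32.7%. For SP, ETS and NFY the rising and steady shares were closer to each other than to the coding start share. The same was so for the YY1, CRE, TATA and AP-1 words that follow. The YY1 word AAGATGG was in 5.82% and 6.02%, beside 6.70%. The CRE word TGACG was in 30.8% and 31.3%, beside 28.6%. The TATA word TATAAA, which marks promoters with a focused start, was in 2.23% and 1.71%, beside 1558 of the 19471 coding start windows. The AP-1 word TGANTCA was in 2.42% and 2.17%, beside 4.62%, and the ZBTB33 palindrome in 0.485% and 0.518%, beside 0.544%. The interval of the rising set included the steady share for each of these 8 words. By contrast, the short NRF-1 word TGCGCA, which partly overlaps the palindrome, was in 10.9% (9.03 to 12.9) of rising and 23.3% of steady windows. It was in 13.7% (11.8 to 15.8) of falling windows and in 10.04% of coding start windows. This word was not counted within classes of −log10 q.

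Base composition and position were close in rising and steady peaks. The median GC content of the windows was 71.0% in rising and 71.7% in steady peaks, and the ratio of observed to expected CpG was 0.882 and 0.907. A coding start lay inside 95.3% of rising and 96.2% of steady siControl peaks, and the midpoint lay within 250 bp of one in 85.8% and 86.9%. Coding starts on both strands were found within 1 kb of 123 rising peaks (11.9%) and of 13.1% of steady peaks. A width of 1300 bp or more was measured in siControl for 87 rising peaks (8.44%), and in 8.80% of steady and 1.97% of falling peaks.

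The genes at the rising peaks were counted over 17 lists. Of 10101 genes with an eligible peak, 1173 had a rising one (11.6%) and 1291 a falling one (12.8%). Respiratory chain and ATP synthase subunits had 4 rising genes of 60 (6.67%, 1.85 to 16.2) and 9 falling ones, with a median rank change of −1.76 points against −0.178 over all eligible pairs. The 4 were NDUFV1, a complex I subunit that binds NADH (ranks 68.2 and 90.3), ATP5MK (44.2 and 59.03, at a promoter shared with PDCD11), ATP5MC1, a c-ring subunit of ATP synthase (69.8 and 83.8), and NDUFC1 (81.2 and 94.7, shared with NAA15). Mitochondrial ribosomal proteins had 8 rising genes of 60 (13.3%) and 10 falling, with a median of −2.68 points. MRPL48 led them with ranks of 58.6 and 89.1 and −log10 q of 7.79 and 14.1, followed by MRPL38 (74.3 and 94.7). For mitochondrial protein import the count was 0 of 27, which allows a share of up to 12.8%. For mitochondrial fusion and fission it was 1 of 11, MFN2, an outer membrane fusion protein (77.5 and 90.8).

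Translation and RNA processing genes were counted in 4 lists. The translation initiation list, chosen by symbol, had 13 rising genes of 43 (30.2%, 17.2 to 46.1) and 2 falling ones, with a median change of 2.60 points. They included EIF4E (ranks 69.8 and 91.7, −log10 q 46.8 and 56.8), the helicases EIF4A2 (32.4 and 56.4) and EIF4A3, a core protein of the exon junction complex (69.3 and 93.8), and the eIF3 subunits EIF3B (32.02 and 47.4, shared with SNX8), EIF3E (80.8 and 93.9, shared with EMC2), EIF3G (35.6 and 52.8) and EIF3J (54.6 and 67.2). Not all of the 13 are initiation factors, since EIF2AK4 (66.3 and 95.1) and EIF2AK2 are kinases that inhibit initiation. No set test was made, and the list was 1 of 17. Cytosolic ribosomal proteins had 4 of 55 (7.27%, 2.02 to 17.6), namely RPS6, RPL13 (50.7 and 65.7), RPL32 (40.8 and 53.6) and RPS15 (73.8 and 84.2). Splicing genes had 6 of 43 (13.95%, 5.30 to 27.9) and as many falling, led by SNRPD1, a core snRNP protein (79.2 and 99.4), and SRSF7, an SR protein (78.4 and 97.9, shared with GEMIN6). Aminoacyl-tRNA synthetases had 3 of 28 (10.7%, 2.27 to 28.2), with YARS1 first (57.5 and 77.7, at a promoter shared with S100PBP).

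Cell cycle, DNA replication and protein turnover lists had rising shares whose intervals all included the 11.6% of all genes. Of 28 genes of the cell cycle and p53 list, 2 were rising (7.14%, 0.877 to 23.5) and 5 falling. The rising genes were CCNE1, the G1/S cyclin E1 (ranks 55.9 and 74.4), and E2F3, an activator of S-phase genes (21.1 and 41.3). The CCNE1 peak spanned 1400 bp in siControl and 1061 bp in siAATF, with inward shifts of 360 bp downstream and −21 bp upstream. DNA replication had 4 of 37 (10.8%, 3.03 to 25.4), namely RFC2 (45.2 and 62.9), MCM5 (39.4 and 53.3), ORC2 (43.5 and 55.4) and ORC3 (79.96 and 90.5, shared with RARS2). The proteasome list had 4 of 36 (11.1%, 3.11 to 26.1), led by PSMD11, a subunit of the regulatory particle (37.5 and 62.5), and including PSMG1 (69.7 and 81.8), which is an assembly chaperone and not a subunit. The list of ubiquitin-conjugating enzymes had 2 of 30 (6.67%, 0.818 to 22.1), UBE2A (65.7 and 97.4) and UBE2W (66.3 and 77.8).

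Signalling and transcription factor lists completed the account. AP-1 factors had 2 of 9, JUN (35.1 and 60.4) and FOSL1 (37.6 and 55.3), with an interval of 2.81 to 60.01%. Lysosomal genes had 1 of 22, TFEB (45.01 and 63.1), and genes of the PI3K-Akt pathway 0 of 24, which allows up to 14.2%. Of 306 ZNF genes, 33 were rising (10.8%) and 37 falling (12.1%). Replication-dependent histones had 2 of 26, H2AC15 and H2BC15, which share 1 peak (43.3 and 57.0), against 9 falling genes.

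**Figure D5:**
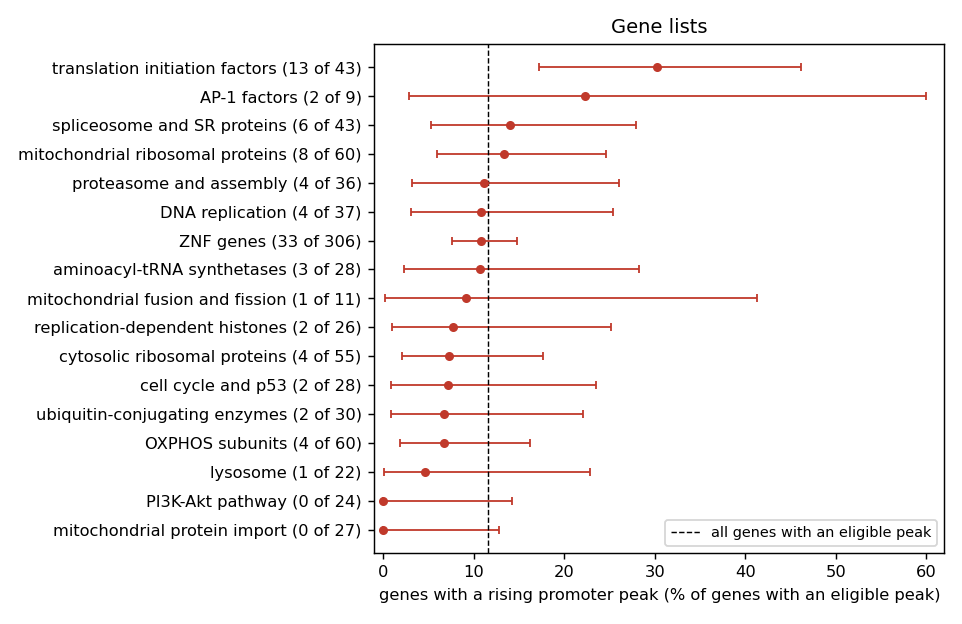
Share of genes with a rising promoter peak among genes of each list with an eligible peak, with exact 95% intervals and the counts beside each name; the dashed line is the 11.6% of all genes with an eligible peak. The interval of the translation initiation list, 17.2 to 46.1%, lies above the line and those of the other 16 lists include it.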

How the data were processed

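NRF-1 ChIPmentation libraries from siControl and siAATF U251 cells were compared, with 1 deposited peak list per condition. Per the study's methods, the authors aligned reads to hg19 with Bowtie2 and called broad peaks with MACS2 in an ATAC-seq pipeline with its defaults. Whether the duplicates were pooled, and whether a control library was used, was not given in the sources used here. The authors deposited for each peak a display score (not used), a fold enrichment over the local background (a ratio), a −log10 p (not used) and a −log10 q. Values are means over the broad peak. Depth was unknown.

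Pairs, ranks, widths and edges were computed with Python 3.11.15, numpy 2.4.6 and pandas 2.3.3. Percentile ranks were taken over each whole list, mean ranks being used for ties. Overlap was at least 1 base. Coding starts came from GENCODE release 44 lifted to GRCh37 and sequence from the GRCh37 primary assembly, in which all 36145 peaks on chromosomes 1 to 22 and X ended within their chromosome. Coordinates are 1-based on hg19. Words were searched on both strands, the palindromes with 0 or 1 mismatch in the whole siControl peak. Exact Clopper-Pearson 95% intervals (scipy 1.17.1) cover counting error only, and neither peaks nor genes stand for replicates. The code was tested on simulated lists.

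The members, gene lists, comparisons and named genes were chosen with earlier results of these data known. Named were the 10 largest gains, the 5 highest siControl −log10 q, the 5 highest siAATF ranks, up to 8 exact matches, up to 4 genes per list, and 3 pairs at each side of the threshold. One of the 10 largest gains is not reported here. The EIF3 subunits and EIF2AK2 were named after their values were seen.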

Additional observations from a re-analysis of the deposited data

How the results depend on the processing

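No paired analysis was possible because each condition had 1 list. Ranking by enrichment times width was chosen after the data had been seen. Of 33 values for 5 results, 17 did not leave the main value's interval (for counts, 1.5 times the main count) and 16 did. The rising count was 2199 for gains over 5 points, 195 over 20 points, 1558 with no −log10 q minimum and 609 with a minimum of 10, which follows from the looser or stricter limits. It was 353 when ranked by −log10 q, of which 329 were among the 1031, and 511 when ranked by enrichment times width, of which 126 were. The falling count was 2363, 288, 757, 481 and 418 for over 5 points, over 20 points, the minimum of 10, −log10 q and enrichment times width. The cause was not tested for the last 2. With gains over 20 points, the share of rising pairs with a narrower siAATF peak was 82.1%, that with a gain of over 10 points in −log10 q rank 75.4% and that with the palindrome 5.64%. The exact palindrome was in 1.75%, and with 1 mismatch in 300 bp windows in 5.53%. Promoter windows of 500 bp and 2 kb, reciprocal overlap of 50%, −log10 q of 5 in both lists, ranking within the pairs and siControl ranks 20 to 80 left each result computed with them inside that range. With 1 list per condition, AATF depletion cannot be told apart from any other difference between the libraries, including depth, which was unknown.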

Other observations

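Rising peaks were found on every chromosome examined. Their share of eligible pairs ran from 7.01% on chromosome 20 (19 of 271, 4.27 to 10.7) to 14.4% on chromosome 16 (61 of 425, 11.2 to 18.1). The 5 rising peaks with the highest siAATF ranks lay at SNAPC1, a subunit of the complex that activates snRNA genes (87.6 in siControl and 99.8 in siAATF), FAM114A1 (80.5 and 99.6), the promoter shared by KATNAL2 and PIAS2 (80.997 and 99.4), SNRPD1 and CARMIL1 (78.04 and 99.4). None of the 5 held the palindrome with up to 1 mismatch, and each was narrower in siAATF. SNAPC1, for example, had 776 bp in siControl and 662 bp in siAATF. Over all rising peaks, 8.44% held the palindrome and 79.3% were narrower in siAATF, so these loci are like most of the set. Away from coding promoters, 424 of 2618 pairs with a siControl −log10 q of at least 5 gained more than 10 points (16.2%), against 11.0% at promoters.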
